A study of Rattus norvegicus with 24 samples.

Results

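The synaptic vesicle release and recycling genes described here are 37 rat genes for the proteins that load, dock, fuse and retrieve transmitter vesicles at the presynaptic terminal. They were taken by symbol: every probe set of the array whose gene symbol equals a listed name was used, and all 37 names were found, among 14217 genes with a single symbol on the array. They hold 58 of its 31099 probe sets, and 16 of the genes have over 1 probe set. The set has 13 synaptotagmins, 9 SNARE proteins with their regulators and disassembly factors, 6 vesicle proteins, 3 active zone and docking proteins, and 6 endocytic proteins.

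The RNA came from 18 hypothalami of male Wistar rats, an outbred laboratory strain, which were 7 weeks old and had a week to acclimatize. Group C, the 6 controls, had neither stress nor odour. Group S, another 6 rats, spent 2 h in steel-wire mesh restraint, and group SO, the last 6, had the same 2 h of restraint inside a 40 L box into which 20 µL of (R,S)-linalool, a monoterpene alcohol of floral scent, had evaporated. No group breathed linalool without restraint. One array was used per rat, for a block of tissue cut between the optic chiasm and the mammillary bodies and up to the top of the third ventricle, so that every cell type of the block is in the sample. In such tissue, fewer cells of a type and less RNA per cell cannot be told apart.

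A vesicle is primed at the active zone by the Munc13 and RIM proteins, and it fuses when vesicle SNAREs (VAMPs, also called synaptobrevins) zip up with the plasma membrane SNAREs syntaxin and SNAP-25. Synaptotagmins are vesicle or membrane proteins, several of which sense the calcium that triggers fusion, while complexins hold and time the SNARE complex. After fusion, NSF and its adaptor alpha-SNAP take the SNAREs apart, and dynamin, amphiphysin and synaptojanin pinch off and uncoat the retrieved membrane. In the hypothalamus the same machinery serves both fast transmitters and the release of neuropeptides.

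Promoters of 8 members past the threshold with linalool, from both directions of difference, are shown so that their letters can be set beside the values that follow. They are a selection: others with large differences, such as Dnm3 and Dnm1, are described by their values alone. Each sequence is the strand of the gene, 120 bases of the rat assembly GRCr8 from RefSeq, written towards the start of transcription. All end at the base before the RefSeq start except that of Syn1, which covers bases -200 to -81 from it. Capitals mark the GC box GGGCGG (or its complement CCGCCC), a binding motif of Sp-family factors, and the cAMP response element TGACGTCA, and no letters are shared between the motifs in these stretches. The first 5 belong to genes lower with linalool and the last 3 to genes higher with it.
Syt11, chr2:176529776-176529895, minus strand: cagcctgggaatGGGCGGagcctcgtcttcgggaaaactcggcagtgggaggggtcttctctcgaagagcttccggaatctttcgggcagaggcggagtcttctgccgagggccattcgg
Sgip1, chr5:122766733-122766852, plus strand: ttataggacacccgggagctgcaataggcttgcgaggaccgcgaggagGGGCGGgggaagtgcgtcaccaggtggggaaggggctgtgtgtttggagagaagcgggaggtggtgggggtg
Syt1, chr7:46244214-46244333, minus strand: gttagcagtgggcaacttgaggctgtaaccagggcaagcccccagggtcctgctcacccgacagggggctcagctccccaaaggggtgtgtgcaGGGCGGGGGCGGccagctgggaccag
Vamp2, chr10:54292669-54292788, plus strand: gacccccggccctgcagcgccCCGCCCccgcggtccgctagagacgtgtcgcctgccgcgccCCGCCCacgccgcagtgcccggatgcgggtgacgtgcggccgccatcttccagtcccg
Syn1, chrX:3725545-3725664, plus strand: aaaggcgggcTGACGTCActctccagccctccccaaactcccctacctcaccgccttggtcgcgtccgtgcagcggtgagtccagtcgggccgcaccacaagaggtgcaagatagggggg
Vamp1, chr4:159698774-159698893, plus strand: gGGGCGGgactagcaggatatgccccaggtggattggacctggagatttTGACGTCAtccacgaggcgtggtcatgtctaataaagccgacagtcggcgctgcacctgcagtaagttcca
Nsf, chr10:89357384-89357503, minus strand: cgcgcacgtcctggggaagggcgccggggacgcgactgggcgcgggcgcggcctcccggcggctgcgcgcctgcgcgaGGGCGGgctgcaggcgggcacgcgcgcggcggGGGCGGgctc
Napa, chr1:85915315-85915434, plus strand: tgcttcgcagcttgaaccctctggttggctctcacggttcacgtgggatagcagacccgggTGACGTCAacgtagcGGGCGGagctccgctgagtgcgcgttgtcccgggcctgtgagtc

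Over windows from 250 bases before to 50 bases after the start, RefSeq's table held a promoter for 30 of the 37 genes, and the others are Syt5, Syt7, Syt10, Syt12, Syt13, Syt17 and Snap25. The GC box stood in 23 of the 30 (76.7%), against 33.1% of all 33469 promoters of the same length, both strands counted. Each member was counted with a single promoter, whereas all promoters were used as they stood, not limited to the genes of the array. The median GC content was 64.8% among the members and 51.7% among all promoters. The cAMP response element stood in 3 of the 30 (10%), those of Vamp1, Napa and Syn1, against 1.83% of all. The TATA box letters TATAAA stood in 0 of the 30, against 14.2% of all. TTCAGCACC, the left part of the RE1 element bound by the repressor REST, stood in that of Unc13a alone, against 0.356% of all. Genes lower and genes higher with linalool both carry GC boxes in the printed stretches, and the 3 genes with the cAMP response element include 2 that were higher with linalool and 1 that was lower. These letter matches are a description of the sequences and of no binding.

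The deposited values are log2 signals, normalized by the authors in 2 sets of 12 arrays: controls with restrained rats, and the same restrained rats again with the linalool rats. Each comparison was made inside its set, and both share the 6 restrained rats. For 11507 of the 14217 genes in the set with controls, and 11510 in that with linalool, the residual SD between rats is under 0.01 on this scale, a spread too narrow to be read as a fold, and such genes are called compressed here. For them differences are given in residual SDs, with values per rat measured from the mean of the 12 arrays. In this unit every difference between 2 means of 6 has an SE of 0.577. Column medians lay between 8.13 and 8.19. That range is narrow in log2 but wide beside the median residual SD of all genes, 0.000177 in the set with linalool. Of 17 markers of hypothalamic neurons 9 had a signal above that of the median gene, as did 8 of 10 thalamic markers and 1 of 5 pituitary markers, although the brightness of different probes gives only a rough order.

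Restraint alone moved none of the 37 genes past the threshold, an adjusted p of 0.05 from limma over all genes. The background was low as well: 0.71% of all genes passed. At an unadjusted p under 0.05 there were 9 of the 37 members, against 16% of all genes. The members leaned upward in the restrained rats: 31 of 37 had a higher mean than in the controls, against 54.7% of all genes, with a median difference of 0.764 residual SDs against 0.110 over all genes. Under other scalings of the arrays all genes shared the lean. After median centring 32 of 37 members and 89.9% of all genes had a higher mean, and after quantile normalization 30 members and 87.4%, with medians near each other (1.12 and 1.11 residual SDs, then 0.782 and 0.896). It is a description of genes measured in the same blocks, with no test.

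The member with the lowest adjusted p after restraint was Synj1, synaptojanin, the lipid phosphatase that helps strip clathrin from retrieved vesicles. Its values, in residual SDs, ran from -2.46 through a median of -1.31 to -0.57 in the controls and from -0.79 through 1.84 to 2.35 in the restrained rats. The difference was 2.81 residual SDs (adjusted p = 0.0677 in limma), with an overlap made by the lowest restrained rat. Syt11, a synaptotagmin that does not bind calcium and acts in vesicle retrieval, was the only member whose groups did not overlap, where 1.86% of all genes did not. Its highest control lay at -0.17 and its lowest restrained rat at 0.22 residual SDs, and the difference was 2.32 residual SDs (adjusted p = 0.114 in limma). Both genes are compressed in this set.

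Nsf, the ATPase that takes spent SNARE complexes apart, differed by 2.16 residual SDs (adjusted p = 0.142) and Syt2, a fast calcium sensor, by 2.03 (adjusted p = 0.149), both in limma. Without restrained rat 2, Synj1 and Nsf passed limma's threshold, at adjusted p = 0.0298 and 0.0484. Sv2a, a vesicle glycoprotein and the target of the antiepileptic levetiracetam, gave the clearest value on the deposited scale. Its log2 signal was 10.91, 11.13 and 11.44 (lowest, median, highest) in the controls and 11.35, 11.45 and 11.60 in the restrained rats. The difference was 0.31 (SE 0.093, adjusted p = 0.161 in limma), and the highest control lay above the lowest restrained rat. The remaining members lay between -1.14 (Sgip1) and 1.75 residual SDs (Dnm1).

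By role, the upward lean took in all 6 vesicle proteins and all 3 active zone and docking proteins, 8 of 9 SNARE proteins and regulators, 10 of 13 synaptotagmins and 4 of 6 endocytic proteins. The 6 members with a lower mean in restrained rats were Syt1, Syt5, Syt10, Cplx2, Dnm3 and Sgip1, with log2 differences as far as -0.29 in Cplx2 and -0.25 in Sgip1, none past the threshold. Over the probe sets, 0 of 58 passed, where 0.554% of all tested probe sets did, at unadjusted p under 0.05 there were 11 of 58, and the lowest adjusted p was 0.0725. Among 86 measured genes of a wider presynaptic list 1 passed (1.16%), near the 0.71% of all genes. It was Napb, the beta form of the NSF adaptor SNAP, which is compressed and rose by 3.34 residual SDs (adjusted p = 0.0393 in limma). No gene of that list passed under median centring or quantile normalization.

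Markers of other cell types differed in this comparison as well. All 12 meningeal markers had a lower mean in the restrained rats, none past the threshold, and their mean level ran from -1.05 to 2.28 residual SDs in the controls and from -0.94 to -0.38 in the restrained rats. Of 8 endothelial markers 2 fell (25%), where 0.225% of all genes fell. Kdr, a receptor for vascular growth factor, fell by 0.64 on the log2 scale (limma adjusted p = 0.0302). Slco1c1, a thyroid hormone transporter of the blood-brain barrier, fell by 0.25 (limma adjusted p = 0.0492). Of 12 pan-neuronal markers, 11 had a higher mean in the restrained rats, with 0 past the threshold and 6 at an unadjusted p under 0.05. Their level ran from -0.81 to -0.30 in the controls and from 0.30 to 1.00 in the restrained rats, without overlap, and the mean over the 37 members ran from -0.62 to -0.12 and from -0.11 to 0.77. What part cell makeup had in the members' lean was not tested.

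**Figure D1:**
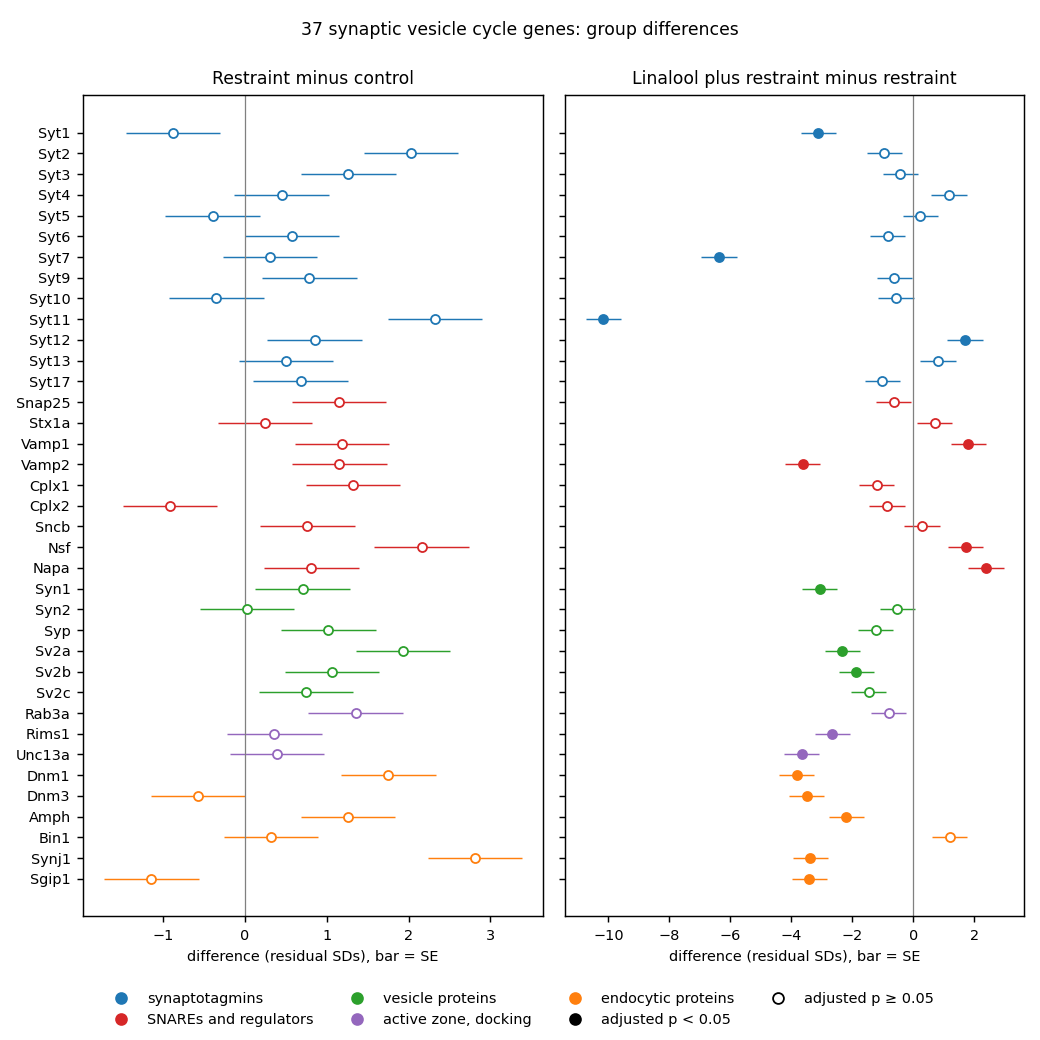
Differences between group means for the 37 genes in residual SDs (horizontal axis; bars are the SE of 0.577), with restraint minus control on the left and linalool plus restraint minus restraint on the right, coloured by role. Filled points have a limma adjusted p under 0.05: there are 0 on the left, and on the right 18, of which 14 lie below 0.

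With linalool in the air during restraint, 18 of the 37 genes passed the threshold (48.6%), where 29.7% of all genes did. Of the members, 14 fell (37.8%; 9.71% of all genes fell) and 4 rose (10.8%; 20% of all genes rose). Counted without a test, 10 of 37 members had a higher mean with linalool, against 56.4% of all genes, and at an unadjusted p under 0.05 there were 19, against 40.8%. The median member differed by -0.953 residual SDs and the median gene by 0.223. The falls took in the calcium sensor Syt1, the vesicle SNARE Vamp2, the priming factor Unc13a and 5 of 6 endocytic proteins. Of these, Unc13a and the endocytic genes Synj1 and Amph are compressed, and median centring turned their signs. In 10 members, all of them lower, the 2 groups did not overlap (14.2% of all genes did not overlap, and 3.7% did not and were lower).

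How many members passed, and which way, moved with the scaling of the arrays and with a marker score. Centring each array on its median gave 18 higher and 11 lower members, quantile normalization over all probe sets 0 higher and 12 lower, and quantile normalization restricted to the 14217 genes 0 higher and 17 lower. Past the threshold under these scalings were 13220, 1573 and 4941 of the 14217 genes, in that order. Median centring also turned the median member to 0.374 residual SDs, below the 1.46 of all genes. Of all genes past the threshold, 67.4% were higher in the deposited scaling, 95.3% after median centring and 64.4% after quantile normalization, and in the version restricted to the genes 987 of 4941 were higher. With the mean of the thalamic markers as a covariate, 0 members were higher and 9 lower. Through each of these settings Syt7, Syt11, Vamp2, Dnm1, Dnm3 and Sgip1 stayed lower and past the threshold.

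**Figure D2:**
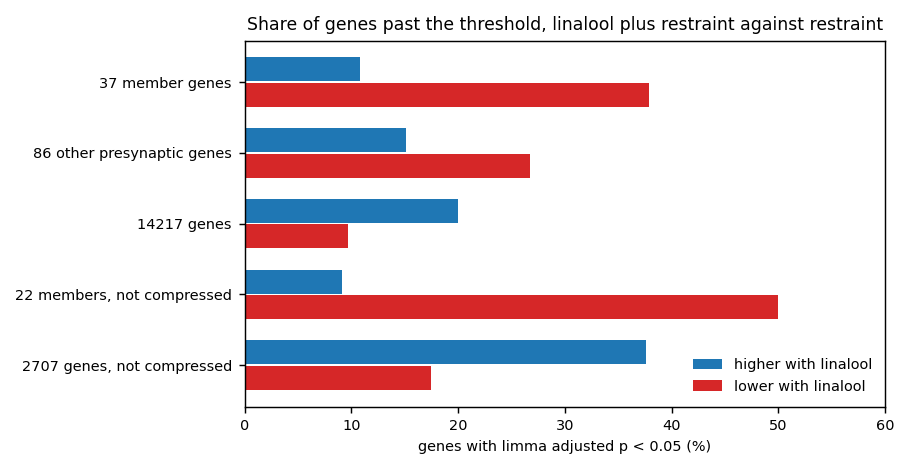
Share of genes past limma's adjusted p of 0.05 (horizontal axis, %), higher (blue) and lower (red) with linalool, for the member genes, the wider presynaptic list, all genes, and the genes that are not compressed. Members are lower in 37.8% and all genes in 9.71%, and among genes that are not compressed the shares are 50% and 17.5%.

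Compression decides which differences can be read as a fold. Of the 22 members not compressed in this set 13 passed (59.1%), with 11 lower (50%), where 55.2% of all such genes passed, 17.5% lower and 37.6% higher. Of the 15 compressed members 5 passed, with 3 lower (20%), where 23.8% of all compressed genes passed, 7.86% lower. The members' share past the threshold was thus near that of other genes of their kind, and the direction was where the shares stood apart, a comparison of shares without a test.

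Of the 13 synaptotagmins 3 fell, 1 rose and 9 did not pass, a share past the threshold (30.8%) near the 29.7% of all genes. Syt11 had the lowest adjusted p of the 37. Its log2 signal was 9.07, 9.12 and 9.16 (lowest, median, highest) in restrained rats and 8.39, 8.50 and 8.62 with linalool, far from any overlap. The difference was -0.61 (SE 0.035), or -10.2 residual SDs, with a limma adjusted p of 1.96e-05. Syt7, a slow calcium sensor of asynchronous release and of peptide vesicle fusion, gave 8.36, 8.55 and 8.79 in restrained rats and 7.44, 7.70 and 7.76 with linalool. It fell by 0.88 (SE 0.080, -6.38 residual SDs, limma adjusted p = 0.000103), and its 6 linalool rats all lay below every restrained rat. All 3 probe sets of Syt7 fell, and the other 2, both compressed, differed by -4.43 and -3.29 residual SDs.

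Syt1, the calcium sensor of fast synchronous release, stood at 9.63, 9.71 and 10.02 in restrained rats and at 9.38, 9.42 and 9.47 with linalool. It fell by 0.34 (SE 0.063, -3.12 residual SDs, limma adjusted p = 0.00272), again with no overlap, and the restrained rats were the more scattered group. Syt12, a synaptotagmin without calcium binding, was the one member of the role that rose. The gene is compressed: its values were -1.89, -1.11 and 0.52 residual SDs in restrained rats and -0.74, 0.67 and 2.56 with linalool. The difference was 1.70 residual SDs (limma adjusted p = 0.0466), the groups overlapped, and the call was lost without any one of 10 of the 12 rats.

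The 9 synaptotagmins that did not pass, Syt2, Syt3, Syt4, Syt5, Syt6, Syt9, Syt10, Syt13 and Syt17, differed by between -1.01 (Syt17) and 1.18 residual SDs (Syt4). The largest difference among them on the deposited scale was that of Syt9, a calcium sensor of dense-core vesicles among other places, at -0.16 (SE 0.15). Syt4, an activity-induced synaptotagmin found on peptide vesicles of hypothalamic neurons, differed between its 2 probe sets. The probe set used here, compressed, was 1.18 residual SDs higher and did not pass, whereas the other fell by 0.28 (SE 0.053, limma adjusted p = 0.00356 over all probe sets).

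Of the 9 SNARE proteins and partners 1 fell (11.1%, near the 9.71% of all genes), 3 rose (33.3%, against 20%) and 5 did not pass. Vamp2, the main vesicle SNARE of central synapses, had a log2 signal of 11.68, 11.78 and 11.86 in restrained rats and of 11.49, 11.51 and 11.67 with linalool. It fell by 0.24 (SE 0.038, -3.63 residual SDs, limma adjusted p = 0.00123), and only linalool rat 6 came near the restrained rats. Vamp1, the related vesicle SNARE of brainstem and spinal synapses, went the other way, with 11.78, 11.86 and 11.97 in restrained rats and 11.91, 12.02 and 12.18 with linalool. It rose by 0.16 (SE 0.051, 1.81 residual SDs, limma adjusted p = 0.0352), with overlapping groups, and a second probe set of Vamp1 rose by 0.35 (SE 0.066, limma adjusted p = 0.00369).

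Both factors that recycle SNAREs after fusion were higher with linalool. Nsf had a log2 signal of 11.94, 12.04 and 12.12 in restrained rats and 12.07, 12.23 and 12.37 with linalool. It rose by 0.18 (SE 0.061, 1.73 residual SDs, limma adjusted p = 0.0421), and the lowest linalool rats lay among the restrained ones. Napa, alpha-SNAP, the adaptor that brings NSF to the SNARE complex, is compressed, with -2.36, -1.34 and -0.04 residual SDs in restrained rats and -0.22, 1.35 and 2.44 with linalool. It rose by 2.39 residual SDs (limma adjusted p = 0.0125) with a narrow overlap. None of the 3 SNARE genes that rose passed the threshold as higher under either quantile normalization. Vamp1 and Nsf kept their sign there, and Napa changed sign.

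**Figure D3:**
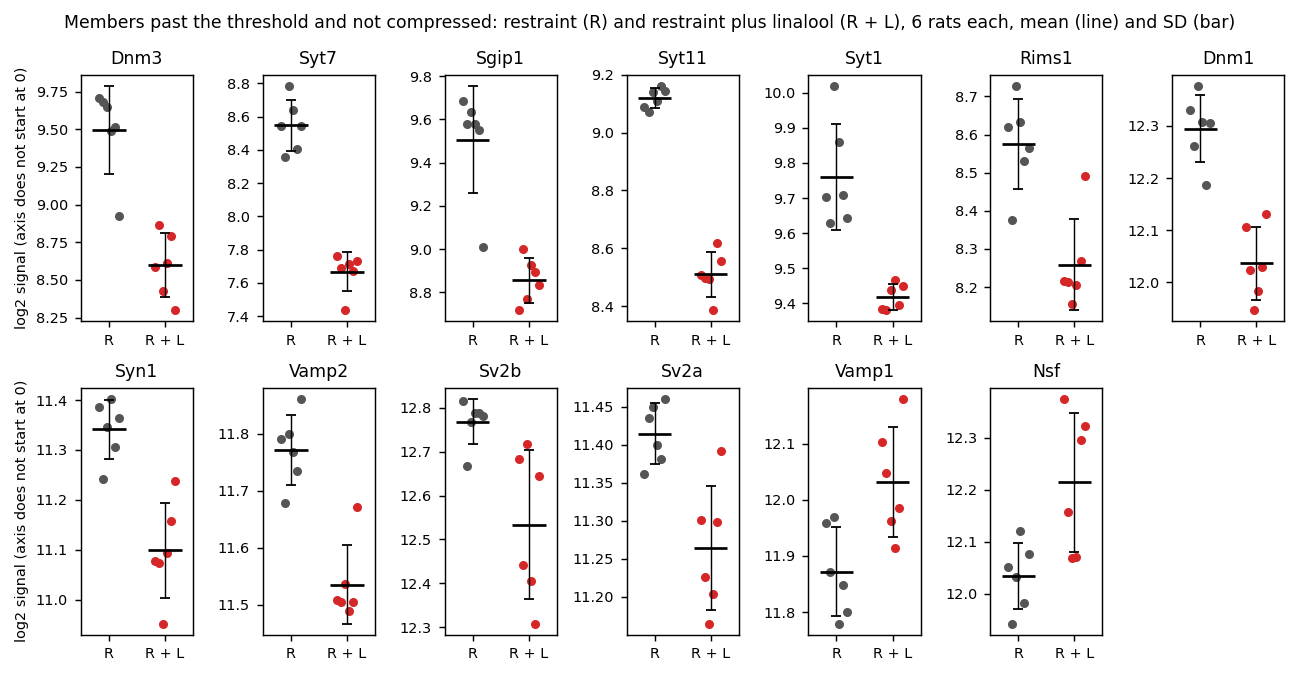
Log2 signal (vertical axes, not starting at 0) of the 13 members past the threshold that are not compressed, in 6 rats after restraint (R, grey) and 6 after restraint plus linalool (R + L, red), with mean and SD. The first 11 genes are lower with linalool, Vamp1 and Nsf are higher, and the groups are apart in Dnm3, Syt7, Sgip1, Syt11, Syt1, Dnm1, Syn1 and Vamp2.

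Calls on the SNARE genes differed in how far they leaned on single rats. Vamp2 and Napa stayed past the threshold whichever of the 12 rats was left out. Nsf passed without restrained rat 4 or linalool rats 3 or 4 and did not without any of the other rats, with adjusted p as high as 0.0830. Vamp1 passed without restrained rats 1 or 3 or linalool rats 3, 4 or 5 and otherwise not, with adjusted p as high as 0.0743.

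The plasma membrane SNAREs did not pass, and both are compressed in this set: Snap25 differed by -0.65 and the syntaxin Stx1a by 0.70 residual SDs. Of the complexins, Cplx1 differed by -0.12 (SE 0.057) and Cplx2 by -0.20 (SE 0.14) on the log2 scale without passing. A second, dimmer probe set of Cplx1 fell by 0.54 (SE 0.084, limma adjusted p = 0.00128 over all probe sets). Sncb, beta-synuclein, a presynaptic relative of alpha-synuclein, differed by 0.03 (SE 0.051).

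Of the 6 vesicle proteins 3 fell past the threshold, where 9.71% of all genes fell, and all 6 had a lower mean with linalool, where 56.4% of all genes had a higher one. Syn1, synapsin I, the phosphoprotein that tethers the reserve pool of vesicles, had a log2 signal of 11.24, 11.36 and 11.40 in restrained rats and 10.95, 11.09 and 11.24 with linalool. The groups only just parted, since the lowest restrained rat was at 11.243 and the highest linalool rat at 11.238. Syn1 fell by 0.24 (SE 0.046, -3.07 residual SDs, limma adjusted p = 0.00298). Syn2, synapsin II, differed by -0.05 (SE 0.055) at the probe set used, while its other 2 probe sets fell by 0.27 (SE 0.053) and 0.15 (SE 0.048), with limma adjusted p of 0.00418 and 0.0434 over all probe sets.

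Of the SV2 glycoproteins, which sit in the vesicle membrane and bear on calcium-triggered release, both Sv2a and Sv2b fell. Sv2a was at 11.36, 11.42 and 11.46 in restrained rats and at 11.16, 11.26 and 11.39 with linalool, a fall of 0.15 (SE 0.037, -2.33 residual SDs, limma adjusted p = 0.0116). A single linalool rat reached into the range of the restrained rats. Sv2b was at 12.67, 12.79 and 12.82 in restrained rats and at 12.31, 12.54 and 12.72 with linalool, a fall of 0.23 (SE 0.072, -1.87 residual SDs, limma adjusted p = 0.0303). Its linalool rats were spread over 0.17 log2 (SD) and overlapped the restrained rats, and the call held only without restrained rat 2 or linalool rats 1, 3, 5 or 6, with adjusted p up to 0.0650. Sv2c, compressed, differed by -1.46 residual SDs and Syp, synaptophysin, an abundant vesicle membrane protein, by -0.14 (SE 0.065). Neither passed (limma adjusted p = 0.0791 and 0.128).

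Of the 3 active zone and docking proteins, Rims1 and Unc13a fell, where 9.71% of all genes fell, and Rab3a did not pass. Rims1, the scaffold that ties vesicles and calcium channels to the active zone, had a log2 signal of 8.38, 8.59 and 8.73 in restrained rats and 8.16, 8.22 and 8.49 with linalool. It fell by 0.32 (SE 0.069, -2.65 residual SDs, limma adjusted p = 0.00616), with linalool rat 6 and the lowest restrained rat making the overlap. Unc13a, Munc13-1, which primes vesicles for fusion, is compressed, with -0.16, 1.99 and 3.24 residual SDs in restrained rats and -2.70, -1.72 and -0.95 with linalool. It fell by 3.65 residual SDs (limma adjusted p = 0.00156), with no overlap, but median centring and quantile normalization over all probe sets turned its sign. Rab3a, the small GTPase of vesicle docking, differed by -0.27 (SE 0.19, limma adjusted p = 0.316), with SDs of 0.29 and 0.37 log2 in the 2 groups.

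Of the 6 endocytic genes 5 fell past the threshold, where 9.71% of all genes fell, and Bin1 differed by 0.03 (SE 0.013, limma adjusted p = 0.140). Of the 5, Synj1 and Amph are compressed and turned sign under median centring. Dnm1, dynamin 1, the GTPase that cuts vesicles from the plasma membrane in neurons, stood at 12.19, 12.31 and 12.38 in restrained rats and at 11.95, 12.03 and 12.13 with linalool. It fell by 0.26 (SE 0.039, -3.82 residual SDs, limma adjusted p = 0.000944), and the groups were apart. Dnm3, a dynamin found both before and after the synapse, was at 8.92, 9.58 and 9.71 in restrained rats and at 8.30, 8.60 and 8.86 with linalool. It fell by 0.90 (SE 0.15, -3.498 residual SDs, limma adjusted p = 0.00150), the largest log2 difference of the 37 genes, and the lowest restrained rat, rat 6, stood just above the highest linalool rat. Its second probe set fell by 0.17 (SE 0.023, limma adjusted p = 0.000665 over all probe sets).

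Sgip1, a membrane-bending protein of clathrin-mediated endocytosis studied in hypothalamic energy balance, had a log2 signal of 9.01, 9.58 and 9.68 in restrained rats and 8.72, 8.86 and 8.999 with linalool. It fell by 0.65 (SE 0.11, -3.41 residual SDs, limma adjusted p = 0.00172), and again restrained rat 6 lay close to the linalool rats. A second probe set fell by 0.23 (SE 0.068, limma adjusted p = 0.0314). Synj1 and Amph, amphiphysin, which recruits dynamin to the neck of the budding vesicle, are compressed. Synj1 ran through 0.62, 1.69 and 2.73 residual SDs in restrained rats and -2.76, -1.82 and 0.45 with linalool, a difference of -3.37 residual SDs without overlap (limma adjusted p = 0.00246). Amph ran through -0.50, 1.15 and 2.35 and then -1.98, -1.32 and 0.28, a difference of -2.203 residual SDs (limma adjusted p = 0.0178) with overlap. Quantile normalization over all probe sets also turned the sign of Amph.

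**Figure D4:**
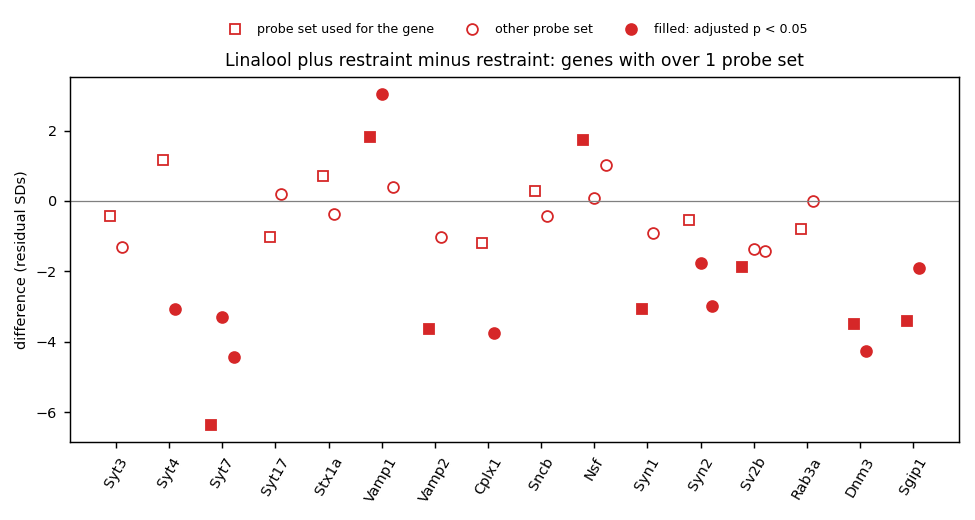
Difference with linalool in residual SDs (vertical axis) at every probe set of the 16 genes that have over 1, with squares for the probe set used for the gene, circles for the others, and filled marks for a limma adjusted p under 0.05 over all probe sets. All 3 probe sets of Syt7 and both of Dnm3 and Sgip1 are filled and below 0, and no gene has filled marks on both sides of 0.

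The probe sets were also tested one by one. Of 58 probe sets 26 passed (44.8%), 22 lower and 4 higher, where 25% of all tested probe sets did. Of the 16 genes with over 1 probe set, 12 had the same sign at each with linalool (11 with restraint), 3 passed at each (Syt7, Dnm3 and Sgip1) and 0 passed in opposite directions. Through their other probe sets, Syt4, Cplx1 and Syn2 had a fall that the probe set used for the gene did not show. With the mean over the probe sets of a gene in place of the brightest, all 18 members still passed, joined by those 3. The share of all genes under that setting is not given here.

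The wider presynaptic list, 86 measured of 102 genes listed, passed in 36 genes (41.9%, against 29.7% of all genes), with 23 lower (26.7%, against 9.71%) and 13 higher (15.1%, against 20%). The 6 lower genes with the smallest p were Rph3a, a Rab3 effector (-0.39, SE 0.046), Rab3c (-0.54, SE 0.077), Snap91, a clathrin assembly protein (-0.19, SE 0.033), the active zone scaffolds Pclo (compressed, -3.25 residual SDs) and Rims2 (-0.24, SE 0.043), and the vesicle protein Syngr1 (-0.49, SE 0.088). Their limma adjusted p ran from 0.000268 to 0.00236. The 6 higher genes with the smallest p were Unc13b, a second Munc13 (compressed, 4.42 residual SDs), Fcho2, an early endocytic protein (0.38, SE 0.066), the SNAREs Vamp3 (0.16, SE 0.028) and Snap23 (0.25, SE 0.056), which serve cells beyond neurons, Napg, gamma-SNAP (compressed, 2.84 residual SDs), and Sh3gl3, an endophilin (0.23, SE 0.052). Their limma adjusted p ran from 0.000498 to 0.00736. Further lower genes were Bsn (-0.31), Pacsin1 (-0.42) and Sh3gl2 (-0.27), for an active zone scaffold and a pair of endocytic proteins, chosen for naming after their values were seen.

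Set beside the same genes after restraint alone, the members with the 3 largest log2 falls differed there by 0.07 (SE 0.12, Syt7), -0.13 (SE 0.13, Dnm3) and -0.25 (SE 0.13, Sgip1). None passed, and Sgip1 was the most negative member after restraint in residual SDs. Synj1, Syt11, Nsf and Sv2a, which had the lowest adjusted p of the members after restraint along with Syt2, all passed with linalool, with Nsf higher and the others lower. The same 6 restrained rats stand on opposite sides of the 2 comparisons, so the pair of differences is not independent and no overlap is drawn from them.

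The scale on which a member was deposited also went with its call. The 6 members compressed with the controls but not with the linalool rats, Syt11, Vamp2, Nsf, Syn1, Sv2b and Rims1, all passed in the linalool comparison, as did 83.2% of all genes of that kind. The 5 compressed only with the linalool rats, Syt3, Syt4, Syt17, Snap25 and Stx1a, gave 0 past the threshold, against 12.7% of such genes. Of the 10 compressed in both sets 5 passed (24.9% of such genes), and of the 16 compressed in neither 7 passed (36.4%). For 11 of the 37 members (29.7%) the SD over the same 6 restrained rats differed over 10-fold between the sets, against 16.5% of all genes, while r between the paired values of those rats had a median of 0.978 among the members. How the normalization acted on these genes was not tested.

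Some markers of the tissue differed with linalool too. Past the threshold were 50% of the thalamic and 25% of the pan-neuronal markers, against 29.7% of all genes (20% higher, 9.71% lower). Of 10 thalamic markers 9 had a lower mean with linalool, where 56.4% of all genes had a higher one. Past the threshold 5 fell (Rora, Ntng1, Synpo2, Plcb4 and Adarb1), by 0.31 to 0.69 on the log2 scale. The mean level of the 10 ran from -0.83 through 0.78 to 1.87 residual SDs in restrained rats. With linalool it ran from -1.60 through -0.52 to 0.01. With that level as a covariate 7 of the 18 members still passed: Syt7, Syt11, Vamp2, Unc13a, Dnm1, Dnm3 and Sgip1, joined by Cplx2 and Sv2c (-4.26 and -3.43 residual SDs, limma adjusted p = 0.0114 and 0.0250). Of 12 pan-neuronal markers 10 had a lower mean with linalool. Past the threshold, Rbfox3 and Elavl3 fell (16.7%, against 9.71% of all genes) and Uchl1 rose. The level of the 12 ran from 0.08 to 0.58 in restrained rats and from -1.17 to 0.69 with linalool. With the neuronal level as a covariate 17 members passed, 16 of them among the 18. The share of all genes under that fit is not given here, and the count under the thalamic covariate is given below.

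Of 17 hypothalamic markers 15 had a higher mean with linalool, where 56.4% of all genes did. Past the threshold 3 rose (17.6%, where 20% of all genes rose) and 0 fell. The 3 were Npy, Sst and Hdc, which make neuropeptide Y, somatostatin and histamine. The astrocyte, oligodendrocyte, microglial, endothelial, meningeal and pituitary lists passed in 8.33% to 28.6% of their genes, below the 29.7% of all genes. Of 8 astrocyte markers 1 fell, the glutamate transporter Slc1a2, by 0.43 on the log2 scale, and 4 means were higher and 4 lower. Of 7 oligodendrocyte markers the myelin gene Mag fell by 0.24 and Mobp rose by 0.08, with 5 means higher. Of 8 microglial markers 2 rose (Aif1 and Itgam), as did 1 of 8 endothelial (Cldn5) and 1 of 12 meningeal markers (Mgp), and 1 of 5 pituitary markers fell (Gh1). Both measured red cell genes, Hbb and Alas2, rose, by 0.35 and 0.36 on the log2 scale. The mean over the 37 members lay between 0.36 and 1.06 residual SDs in restrained rats and between -1.43 and -0.10 with linalool, without overlap. The part of the thalamic, hypothalamic, neuronal and blood markers in the members' differences was not tested beyond the covariate fits.

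**Figure D5:**
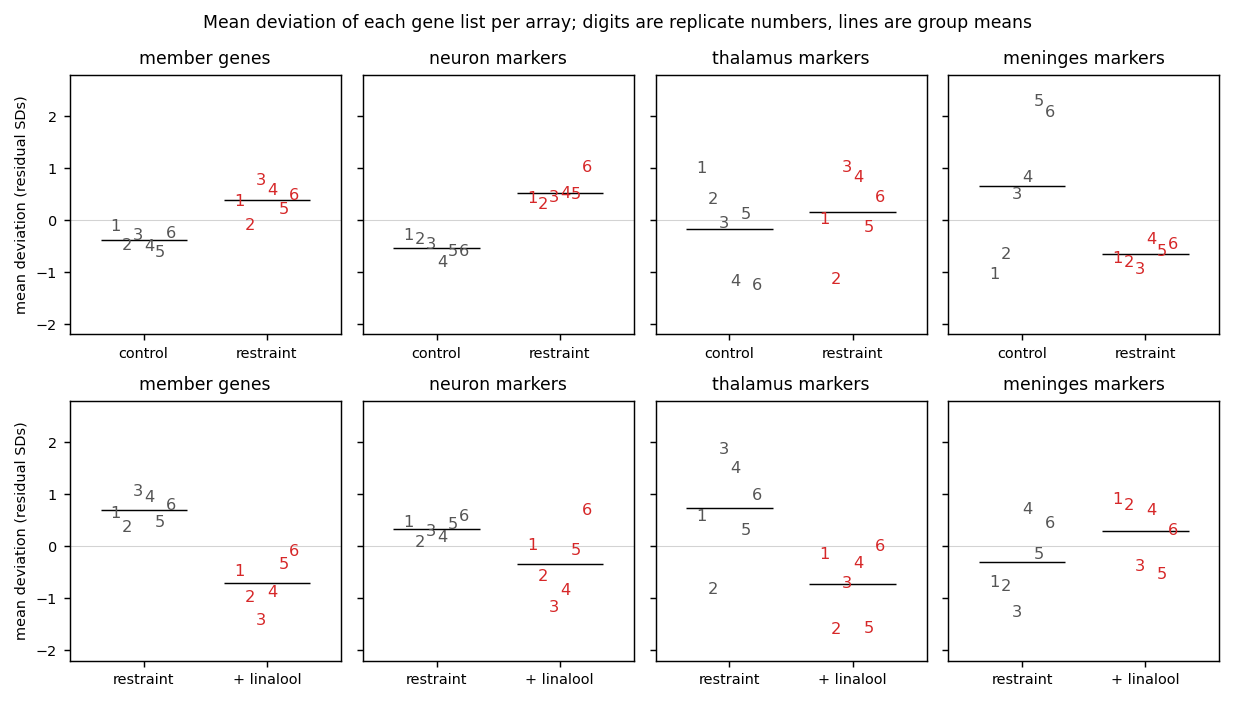
Mean deviation of 4 gene lists on each array in residual SDs (vertical axis), with digits for replicate numbers and lines for group means, for restraint and control (top) and for restraint and restraint plus linalool (bottom). The member genes part without overlap in both rows, neuron markers in the top row only, and meninges markers are highest in controls 5 and 6.

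Control probe sets of the array, which do not measure rat tissue for the most part, were fitted together with all others. With linalool, 23 of 57 passed when adjusted over all probe sets: 11 of 27 for bacterial RNA added for labelling, all higher, 4 of 18 for hybridisation controls, all lower, and 8 of 12 for rat genes and repeats, 2 higher and 6 lower. Adjusted over the 57 alone, 27 passed, 15 of them labelling controls. With restraint 0 of 57 passed in limma when adjusted over all probe sets, 14 were at an unadjusted p under 0.05, and 1 passed when adjusted over the 57 alone. Batches of the arrays are not given in the sources used here, so a difference in the handling of the linalool arrays and the odour cannot be told apart.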

How the data were processed

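The deposited values are log2 signals per probe set, read as log2 from their range (5.59 to 14.93). Control and restraint arrays were normalized together, and restraint and linalool arrays together, per the labels' series design. For the method of summarization, nothing is given in the sources used here. Of 31099 probe sets, 57 controls were left out, and 14217 genes with a single symbol in the platform table were kept, each as its brightest probe set (mean over 24 columns). Symbols were checked against RefSeq (GRCr8).

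Both comparisons used limma's lmFit and eBayes (version 3.58.1, R 4.3.3), two-sided, with Benjamini-Hochberg adjustment over 14217 genes, or over 31042 probe sets for results on probe sets. No filter, pseudocount or further normalization was used, and the number of arrays limits the precision. The procedure was tested on simulated data with independent noise and 200 changed genes, which held no shift shared by the genes of an array. Changes of 2 residual SDs were recovered in 23.6% with restraint and 19.2% with linalool, those of 3 in 61.6% and 64%. Members with differences of that size can thus be missed. The labels describe separate rats, so p-values measure the spread between animals in the deposited, normalized values. For some genes that spread differed by set: over the same restrained rats, the SD differed over 10-fold in 11 of 37 members. Whether the narrow spread of compressed genes is that of the animals was not tested.

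The members, the wider list, the markers and the naming rule were chosen with earlier results of these data known. The rule gives each member past the threshold in full, other members by their difference, and up to 6 higher and 6 lower genes of the wider list. It names other probe sets that differed in sign from the one used at an unadjusted p under 0.05. Other probe sets that passed are given as well. Alternatives covered the probe set rule, scaling, level filter, moderation, replicate block, left-out rats and marker covariates.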

Additional observations from a re-analysis of the deposited data

Results flagged for a closer look

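Of 148 groups of 6 values (37 genes in 4 groups of columns), 17 had a highest or lowest rat whose gap to its nearest neighbour, as a share of the group's range, was above Dixon's 95% critical value. Chance gives about 1 in 20 such groups. Rat 6 of the restrained group was lowest for Sgip1 in both normalizations (0.818 and 0.801) and for Dnm3 in both (0.687 and 0.716). Rat 2 of the same group was lowest for Sv2b (0.652 and 0.669), highest for Sv2c (0.688 and 0.679) and, in the set with linalool, lowest for Syt9 (0.635). These pairs are the same rats normalized again and count once each as animals.

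Among the linalool rats, rat 6 was highest for Vamp2 (0.741), Rims1 (0.667) and Synj1 (0.658), and rat 3 was lowest for Syt7 (0.726). Among the controls, rat 5 was lowest for Syt11 (0.756), rat 2 was highest for Syt12 (0.653) and lowest for Syn1 (0.628), and rat 1 was highest for Rab3a (0.727).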

How the results depend on the processing

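The number of arrays and the compressed scale limit these results. In the linalool comparison, median centring gave 29 members, 77 genes of the wider list, 13220 of all genes and 47 member probe sets. Quantile normalization gave 12 members, 24 of the wider list, 1573 of all genes and 17 probe sets. Over the gene table, an alternative chosen after seeing the data, it gave 17, 45 and 4941, and the mean differences of 33 of 37 members were negative, as were those of most genes (16.4% positive). The thalamic covariate gave 9, 10, 1678 and 15. These scalings moved the median difference of all genes by under 0.01 log2. Each shift was still larger than the median residual SD of all genes, 0.000177 with linalool. Signs turned for Unc13a (0.007565), Amph (0.007627) and Synj1 (0.007594) under median centring, for Napa (-0.013089), Unc13a (0.007424) and Amph (0.006368) under quantile normalization, and for Syt12 (-0.000109) and Napa (-0.023628) over the gene table.

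In the restraint comparison all genes past the threshold were 61 under median centring, 55 under either quantile normalization, 2 without controls 4 to 6 and 0 with the meningeal covariate, and the wider list gave 0 under each of these. Leaving out each rat in turn gave 0 to 2 members, 0 to 1 probe sets, 0 to 1 of the wider list and 26 to 133 of all genes there, and 14 to 18, 21 to 26, 28 to 36 and 3548 to 4187 with linalool, where 14 of 18 members passed in all 12 fits. The member counts left within 1.5 times were 21 for the mean of probe sets, 17 for adjustment over all probe sets, 17 for the neuronal covariate, 17 without moderation and 13 without genes below the median level. These counts are given without the shares of all genes under the same settings.

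Replicate numbers are shared by the groups, but same-numbered rats deviated together only weakly (r from -0.110 to 0.194 with linalool, 2 of 6 pairs over 0.1 and 1 of 6 closest to its own number; 0.0866 to 0.226 with restraint, 4 of 6 and 2 of 6). They share a number only. With the replicate block, 13 members, 30 of the wider list, 20 probe sets and 3254 of all genes passed with linalool, and 0, 0, 0 and 9 with restraint.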
